A study of Mus musculus with 2 samples.

Results

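The RA-labelled cells are the single cells that the deposited cell table assigns to the right atrium in an experiment on the 4 chambers of the adult mouse heart. They were taken as the wells with the label RA, at least 1000 gene UMIs (unique molecular identifiers, 1 per captured RNA molecule) and at least 500 genes. Of 69 RA-labelled wells 44 passed, among 281 of 332 labelled wells in all, and the other cells were 56 labelled LA (left atrium), 91 LV and 90 RV (left and right ventricle). All 4 labels share wild-type C57BL/6 mice of about 3 months, and they form 1 deposited sample with 4 libraries, A to D. Hearts were digested for 9 min by retrograde (Langendorff) perfusion at 1.5 mL/min with collagenase and protease, from mice given no heparin, and single cells were sorted into wells by large-particle flow cytometry. The labels' protocol describes excising and mincing the ventricle. RNA was counted by SCRB-seq, a plate method that reads the 3′ ends of RNA, with a cell barcode of 6 bases, a UMI of 10 bases and 17 PCR cycles. No source used here ties a cell to an animal, so each label is 1 pool, no test between labels was possible, every interval below is an exact (Clopper-Pearson) 95% interval, and the limit given for a count of 0 is 3 counts of the pool's total. Both cover counting error only.

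Mature red blood cells have no nucleus but carry residual RNA, most of it from the alpha and beta globin genes, and reticulocytes, the youngest red cells in blood, carry the most. Heart muscle cells make myoglobin rather than haemoglobin, and ventricular and atrial muscle differ in their myosin light chains: Myl2 and Myl3 in the ventricle, Myl7 and Myl4 in the atrium. Myh6, the alpha myosin heavy chain, is made in both chambers of the adult mouse.

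The promoters of 3 genes are shown because their RNAs define the blood signal described here: the main beta globin, an alpha globin, and Alas2, the red cell form of the enzyme that starts haem synthesis. Each stretch is the 250 bases before the RefSeq gene start (GRCm38.p6), read 5′ to 3′ on the gene's strand, at chr7:103827929-103828178 (minus strand) for Hbb-bs, chr11:32283422-32283671 (plus) for Hba-a1 and chrX:150547167-150547416 (plus) for Alas2. Capitals mark matches, on either strand, of 4 motifs: the letters AGATAA of the GATA type, the box with the letters CACCC, the box with the letters CCAAT and the box with the letters TATAA.
Hbb-bs: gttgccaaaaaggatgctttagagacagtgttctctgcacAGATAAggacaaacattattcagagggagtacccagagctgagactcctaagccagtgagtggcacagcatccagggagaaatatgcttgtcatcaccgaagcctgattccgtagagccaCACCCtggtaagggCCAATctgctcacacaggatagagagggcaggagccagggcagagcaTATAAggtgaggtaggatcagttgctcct
Hba-a1: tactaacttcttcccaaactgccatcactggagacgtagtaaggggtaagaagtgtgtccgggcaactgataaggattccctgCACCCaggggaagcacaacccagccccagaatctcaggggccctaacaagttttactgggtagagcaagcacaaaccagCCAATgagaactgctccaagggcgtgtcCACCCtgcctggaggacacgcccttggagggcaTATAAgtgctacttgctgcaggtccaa
Alas2: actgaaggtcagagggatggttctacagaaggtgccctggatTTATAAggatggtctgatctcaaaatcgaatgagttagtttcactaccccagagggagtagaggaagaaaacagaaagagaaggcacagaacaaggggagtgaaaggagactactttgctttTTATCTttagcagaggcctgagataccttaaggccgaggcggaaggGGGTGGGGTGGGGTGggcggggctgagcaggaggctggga
Hbb-bs held AGATAA at position -210 from the start, CACCC at -90, CCAAT at -76 and TATAA at -29. Hba-a1 held CACCC at -167 and -60, CCAAT at -88 and TATAA at -27, and no AGATAA. The shorter form GATAA, which every match of the longer form contains, was searched only after Hba-a1 was seen to lack the longer one. It was found in Hba-a1 at -182, in small letters, and that match was thus looked for with the sequence in view. Alas2 held AGATAA on the other strand at -86, GGGTG at -40, -35 and -30, and TATAA at -207, overlapping a match on the other strand at -208. Over the same 250 bases of 32851 RefSeq promoters, AGATAA was found in 9.99%, GATAA in 22.6%, CACCC in 52.0%, CCAAT in 33.8% and TATAA in 22.8%. These are matches of letters and no measure of binding.

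The RA label was not matched by the atrial markers. Nppa (atrial natriuretic peptide), Myl7, Myl4 and Sln (sarcolipin) had no UMI in any of the 44 cells, which allows up to 6.72 CPM (UMIs per 1000000) of the RA pool's 446719 nuclear-encoded UMIs without haemoglobin. Myl2, in contrast, had 5510 UMIs (12334 CPM, against 10541 CPM in the LV and RV cells summed) and Myl3 5218 (11681 against 9817 CPM). Both ventricular light chains had a UMI in 44 of 44 cells. The cells are therefore called RA-labelled throughout and are given no other name. RA-labelled wells lay in barcode row 7 of libraries A and B and in rows 5 and 6 of libraries C and D, while LA-labelled wells lay in rows 5 and 6 of A and B and row 7 of C and D. The same 6-base barcodes serve every library: of 84 barcodes 80 occurred in all 4. Of the RA-labelled wells, 11 of 11 passed in library A, 8 of 11 in B, 17 of 24 in C and 8 of 23 in D.

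The RA-labelled cells were shallow. They held 1561 to 183391 gene UMIs each, with a median of 4436.5, against medians of 16146 in LA, 40953 in LV and 50503 in RV cells. Without haemoglobin and mitochondrially encoded RNA the median RA-labelled cell kept 2266 UMIs (861 to 130255) and the median ventricular cell 25611, which is 11.3 times as many. UMIs of the ERCC spike-ins, synthetic RNAs added from outside the cell, had a median of 515 in RA-labelled and 447 in ventricular cells. Per spike-in UMI the median was 5.01 non-haemoglobin UMIs in RA-labelled cells and 63.0 in ventricular cells. The spike-in UMIs were thus not lower in RA-labelled cells, while the cells' own UMIs were. The pool is uneven: 2 cells of library C hold 46.0% of its non-haemoglobin UMIs, and the 26 cells under 5000 gene UMIs hold 8.85% of them but 52.7% of the haemoglobin UMIs. Thinned to 1000 non-haemoglobin UMIs, 42 RA-labelled cells showed a median of 594.5 genes, against 575 in LA, 584 in LV and 587 in RV cells.

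Haemoglobin RNA was found in every kept cell of every label, and its median share was highest in the RA-labelled cells. As a share of nuclear-encoded UMIs it ran from 0.698% to 48.5% with a median of 11.3% in the 44 RA-labelled cells, against medians of 1.81% in LA, 0.818% in LV and 0.669% in RV cells. More than 2% was reached by 34 of 44 RA-labelled cells (77.3%, 62.2% to 88.5%), 26 of 56 LA, 19 of 91 LV and 15 of 90 RV cells. More than 20% was reached by 16 RA-labelled, 8 LA, 0 LV and 1 RV cells. More than 40% was reached by 3 RA-labelled and 5 LA cells, and the highest LA cell held 59.7%. The groups overlap, since 2 RA-labelled cells held under 1%. Summed over the pool, haemoglobin made up 4.97% (4.91% to 5.04%) of RA nuclear-encoded UMIs, less than in the median cell. The 10 cells with the most other UMIs hold 82.1% of the pool's non-haemoglobin UMIs but 21.9% of its haemoglobin UMIs.

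**Figure D1:**
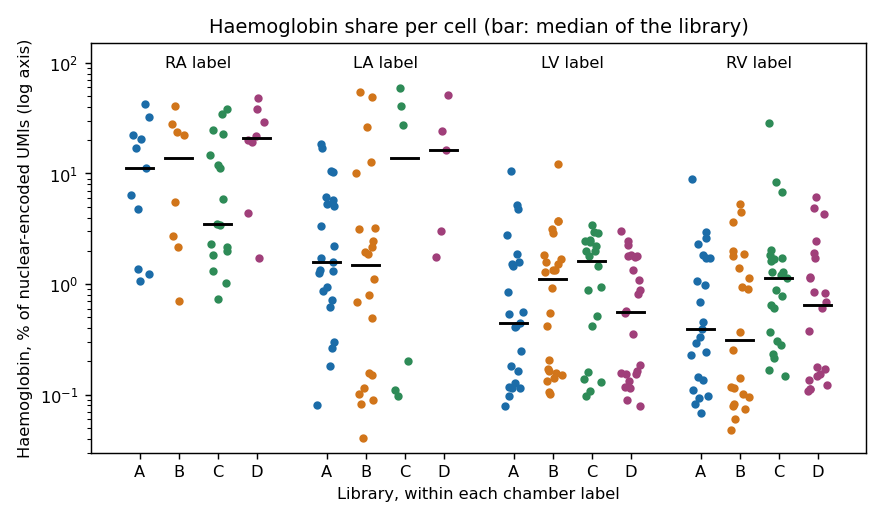
Haemoglobin share of nuclear-encoded UMIs in each kept cell (log axis), by chamber label and library, with the library's median as a bar. The RA-labelled medians are 11.3% in library A, 13.9% in B, 3.52% in C and 20.8% in D, each above the medians of the LV and RV cells of its library.

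In all 4 libraries the median share of the RA-labelled cells was above that of the ventricular cells. The median was 11.3% in library A, 13.9% in B, 3.52% in C and 20.8% in D, against 0.432%, 0.727%, 1.21% and 0.590% in the ventricular cells of the same libraries. Over 2% haemoglobin was seen in 8 of 11 RA-labelled cells of A, 7 of 8 of B, 12 of 17 of C and 7 of 8 of D. Among LA-labelled cells it was seen in 10 of 23 of A, 9 of 22 of B, 3 of 6 of C and 4 of 5 of D. In library C more than 20% was reached by 3 of 6 LA-labelled and 4 of 17 RA-labelled cells. Summed over C, haemoglobin was at 34852 CPM in LA-labelled and 27746 CPM in RA-labelled cells. In A, B and D the RA-labelled sum was higher. By the RA-labelled median library D stood highest, and library C, which holds 10 of the 18 RA-labelled cells with at least 5000 gene UMIs, lowest.

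The amount of haemoglobin RNA differed far less than its share. An RA-labelled cell held 11 to 1629 haemoglobin UMIs with a median of 445.5, against medians of 201 in LA, 138 in LV and 178 in RV cells. The median was 3.01 times the ventricular one and the mean (531 UMIs) 1.38 times, while the median share was 16.5 times the ventricular one. Per spike-in UMI the median was 0.949 in RA-labelled and 0.523 in ventricular cells. At least 100 haemoglobin UMIs were held by 34 of 44 RA-labelled, 34 of 56 LA, 51 of 91 LV and 52 of 90 RV cells. The highest ventricular cell (4023 UMIs) exceeded all RA-labelled cells. Across the 44 cells, which share 4 libraries and vary in depth, haemoglobin and other UMIs had a Spearman correlation of 0.36, the haemoglobin share and other UMIs one of -0.42, and haemoglobin and spike-in UMIs one of 0.39, given as descriptions. Whether depth sets the high share was not tested.

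**Figure D2:**
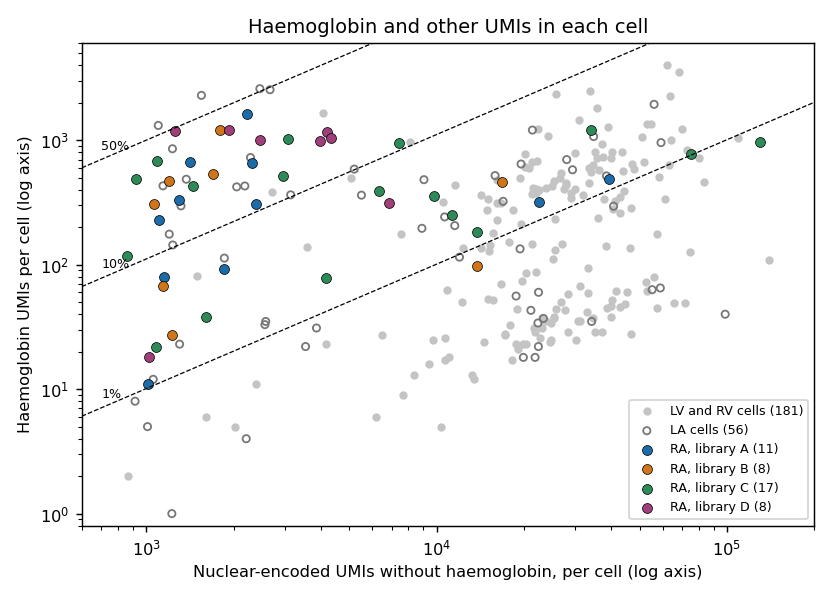
Haemoglobin UMIs against the other nuclear-encoded UMIs of each kept cell (both axes log), with dashed lines at shares of 1%, 10% and 50%. RA-labelled cells (coloured by library) lie mostly to the left, at a median of 2266 other UMIs, and within the vertical range of the ventricular cells (grey).

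Summed over the pool, the haemoglobin of the RA-labelled cells had nearly the make-up found under the other labels, while libraries and single cells varied. Hbb-bs, the major adult beta chain gene (chromosome 7), gave 45.6% of haemoglobin UMIs, Hbb-bt, the second adult beta gene, 10.5%, and the alpha genes Hba-a1 and Hba-a2 (chromosome 11) 24.6% and 19.4%. The beta genes together took 56.0% (55.4% to 56.6%) of alpha plus beta, against 55.4% in LA, 55.5% in LV and 56.4% in RV cells. By library the RA share was 55.4%, 54.3%, 54.8% and 58.7% in A to D. The intervals of C (53.8% to 55.9%) and D (57.5% to 59.9%) did not hold the ventricular 56.0%. In single cells the share ran from 29.6% to 71.1%. The ventricular value lay inside the interval of 29 of 44 cells, with 7 cells above it and 8 below. Embryonic Hbb-y and Hbq1a, a theta-like gene of the alpha cluster, had 0 of 23376 haemoglobin UMIs, which allows up to 0.0128% each. The transcripts of Hba-a1 and Hba-a2 are 99.8% identical over their aligned bases, so how the counting divided reads between them is uncertain, and the sum of both is the safer value. Hbb-bs and Hbb-bt are 93.8% identical overall and 82.7% over their last 200 bases.

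Once haemoglobin genes were left out, the leading genes of the RA-labelled pool were those of heart muscle. An unnamed gene model, CT010467.1, ranked first in RA-labelled cells (5.92% of nuclear-encoded UMIs) as in ventricular cells (8.11%), followed by Ttn (titin), Tpm1 (tropomyosin), Tnnt2 (troponin T), Myh6, Myl2 and Myl3. Myl2 ran from 2997 to 18583 CPM with a median of 10682 in the 44 cells, and the ventricular level of 10541 CPM lay inside the interval of 31 of them. Of the others, 9 lay above and 4 below. Myh6 ran from 3767 to 18288 CPM with a median of 10400, and the ventricular 10166 CPM lay inside the interval of 34 cells, with 6 above and 4 below. The cells whose interval held the ventricular level were mostly the shallow ones, whose intervals are wide: 22 of the 26 cells under 5000 gene UMIs for Myl2 and 23 for Myh6. Of the 18 deeper cells 9 held the ventricular Myl2 level, with 7 above and 2 below, and 11 the Myh6 level, with 5 above and 2 below. The ventricular level lay inside the interval of 29 of 44 cells for Ttn (7 of the 18 deeper ones) and 32 of 44 for Tnnt2 (9 of 18).

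In all 15 cells lay off the ventricular level for Myl2 or Myh6: 5 above for both genes, 3 below for both and 7 off for 1 gene. In library C the 2 deepest cells had Myh6 at 16299 and 15459 CPM and were above the ventricular pool for both genes, as were 1 more cell of C and the deepest cells of A and B. A library D cell with 19.3% haemoglobin had Myl2 at 2997 and Myh6 at 4610 CPM. It also held the highest share of endothelial genes among the 44 cells, 1.08% of its non-haemoglobin UMIs. A library C cell, 73.3% of whose gene UMIs were mitochondrially encoded, had Myl2 at 5247 and Myh6 at 3767 CPM, below the ventricular pool for both genes. The third cell below for both, also of library C, had Myl2 at 6415 and Myh6 at 4389 CPM. It held the highest share of mesothelial genes among the 44 cells, 0.777%. Across cells Myl2 UMIs followed the non-haemoglobin UMIs (Spearman 0.91, n = 44) and much less the haemoglobin UMIs (0.27). The cells thus spread to both sides of the ventricular level, and the median deeper cell had Myl2 at 10853 and Myh6 at 10560 CPM.

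**Figure D3:**
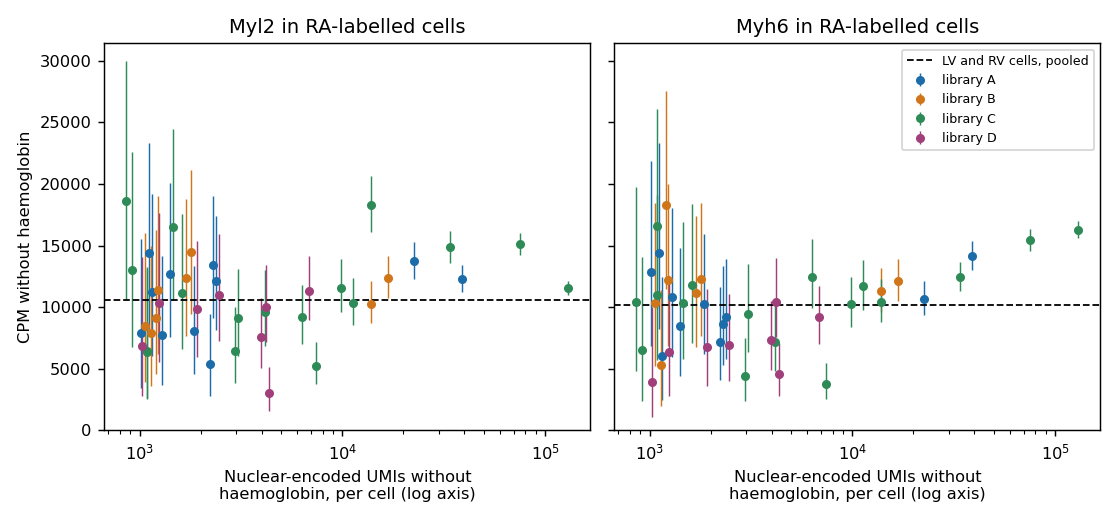
Myl2 and Myh6 in each of the 44 RA-labelled cells in CPM without haemoglobin, against depth (log axis), coloured by library, with 95% counting intervals and the pooled level of LV and RV cells as a dashed line. The line, at 10541 CPM for Myl2 and 10166 for Myh6, crosses the interval of 31 and 34 cells.

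Across all genes, haemoglobin left out, 1453 of 11042 genes (13.2%) exceeded the ventricular pool by 1.5-fold or more in the RA-labelled pool, and 3433 (31.1%) lay 1.5-fold or more below it, on the scale of log2(CPM + 5) and among genes with at least 30 UMIs in both pools together. The median over all genes was -0.19 on that scale. No p-value attaches to these counts. With each gene's highest cell left out of both pools the counts were 552 and 5259 and the median -0.53. That setting lowers the smaller pool more by construction.

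In the summed pool, in which library C weighs most, the contractile and metabolic genes of heart muscle were near the ventricular level. None of 23 sarcomere genes and none of 14 calcium-handling genes passed 1.5-fold in either direction (medians 0.23 and 0.14), nor did any of 24 fatty acid genes (0.036). Of 28 nuclear-encoded respiratory chain genes 1 was higher, with a median of 0.22. Library D was lower throughout, with medians of -0.36 for sarcomere, -0.20 for calcium-handling, -0.41 for fatty acid and -0.37 for respiratory chain genes. With each cell given equal weight the sarcomere, fatty acid and respiratory chain medians were -0.16, -0.063 and -0.13, so their signs depend on the weighting. Among the sarcomere genes, Actn2 (alpha-actinin) was at 2214 against 1533 CPM and Tcap (telethonin) at 1592 against 1806 CPM. Ryr2, the calcium release channel, was at 3062 against 3052 CPM, and Atp2a2, the calcium pump of the sarcoplasmic reticulum, at 7170 against 5906 CPM. Of 6 measured ventricular genes 0 were higher and 1 lower (median 0.17), and by library the median was 0.16 in A, -0.93 in B, 0.32 in C and -0.51 in D. Of 6 measured atrial genes 1 was higher and 3 lower (-0.83). Kcnj3, an atrial potassium channel subunit, was at 40.3 against 95.9 CPM. Without library C the ventricular median was -0.20 and the atrial one 0.16.

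Of the 3 lists of red cell genes beside haemoglobin, that of late red cell development had the most genes higher in the RA-labelled pool. Of its 14 measured genes 11 were at least 1.5-fold higher and 1 lower (median 1.34), beside the 13.2% of all genes that were higher. Tent5c, a poly(A) polymerase of late erythroid cells, had 103 UMIs in 19 cells and was at 231 CPM against 46.9, 4.92-fold (3.88 to 6.21). Isg20, an exonuclease gene, was at 107 against 20.6 CPM, 5.22-fold (3.64 to 7.37). Both were higher in 4 of 4 libraries. Mkrn1, a ubiquitin ligase, was at 246 against 68.0 CPM and Bpgm, which makes the red cell regulator 2,3-bisphosphoglycerate, at 190 against 56.3 CPM. Of 12 haem synthesis genes 6 were higher and 2 lower (median 0.39): Alas2 was at 112 against 29.7 CPM and Slc25a37 (mitoferrin) at 91.8 against 31.0, while Tfrc, the transferrin receptor, which reticulocytes lose as they mature, had 1 UMI in RA-labelled cells. Taken by library, the haem synthesis median was -0.031 in A, -0.82 in B, -0.11 in C and -0.051 in D, below 0 in each. These medians rest on 53, 27, 177 and 67 UMIs of the list in RA-labelled cells of A to D. Summed over the list, RA-labelled cells were higher than LV and RV cells in each library. The sums were 693 CPM in A (LV 402, RV 437) and 698 in B (411, 393). In C they were 579 (562, 486) and in D 2571 (343, 538). Of 8 red cell membrane genes 2 were higher and 1 lower (0.080), with medians of 0.037, -0.94, -0.069 and -0.45 in libraries A to D and -0.13 without library D. Slc4a1, the band 3 anion exchanger, had 29 UMIs in 8 cells, at 64.9 against 4.19 CPM.

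The late red cell median differed by library and with the haemoglobin of the cells taken, though not in the order of the libraries' haemoglobin shares. In cells with at most 2% haemoglobin on both sides its median was 0.18. By library it was 0.99 in A, 0.12 in B, 0.18 in C and 3.64 in D, and it was 2.58 without library C and 0.87 without library D. Library B, second in haemoglobin share, had the lowest median, which rests on 56 UMIs in RA-labelled cells. Its summed CPM of these genes was 1448 in RA-labelled cells, against 919 in LV and 848 in RV cells. By that sum library C was lowest, at 1254 CPM, and library A stood above B, at 2798 CPM. Library D, with the highest haemoglobin share, had 8711 CPM of these genes in RA-labelled cells, against 964 CPM in its LV and 1030 CPM in its RV cells. The genes are few and the list was chosen with earlier results in view, so its count is a description.

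Counted per 1000 haemoglobin UMIs instead of as CPM, Alas2, Tent5c and Mkrn1 differed less than 1.5-fold between the 4 labels. Alas2 was at 2.14 in RA-labelled and 2.34 in ventricular cells, with the 4 labels between 2.14 and 2.73, although its CPM differed 3.77-fold. Tent5c was at 4.41 against 3.69 and Mkrn1 at 4.71 against 5.36. Bpgm was at 3.64 against 4.44 and Isg20 at 2.05 against 1.62, but between the 4 labels they differed 2.13-fold and 1.73-fold. Of the 14 measured late red cell genes 6 lay within 1.5-fold of the ventricular value on this scale, 1 above and 7 below. All but 2 of the 12 haem synthesis genes and 7 of the 8 membrane genes were below. The genes below include Prdx2 (peroxiredoxin 2), at 656 against 498 CPM but 12.5 against 39.2 per 1000 haemoglobin UMIs, and Ank1 (ankyrin 1), at 318 against 224 CPM but 6.07 against 17.7. Slc4a1 was the other way, at 1.24 against 0.330 per 1000, and rests on 29 UMIs. Across the 44 cells the summed UMIs of the red cell lists had Spearman correlations of 0.64 with haemoglobin and 0.67 with the other UMIs.

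**Figure D4:**
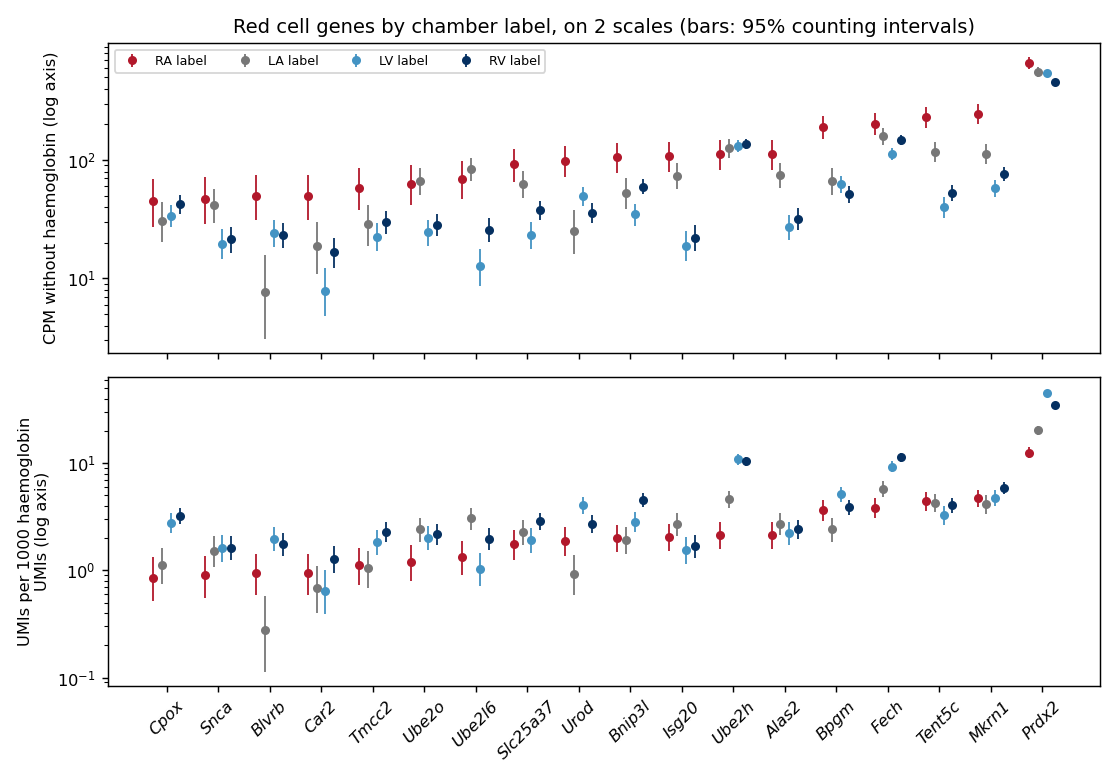
Genes of the haem synthesis and late red cell lists with at least 20 UMIs in RA-labelled cells, by chamber label with 95% counting intervals, as CPM without haemoglobin (top) and per 1000 haemoglobin UMIs (bottom), both axes log. For Tent5c and Mkrn1 the RA interval lies above the others in the top panel and overlaps each of them in the bottom one, for Alas2 those of RA and LA overlap in both, while Prdx2 and Fech are lowest for RA in the bottom panel.

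Markers of other blood cells were scarce. The 19 white blood cell genes in the table summed to 20 UMIs in the RA-labelled pool, of which library D held 13, and the platelet genes to 12 UMIs. Of 6 measured white blood cell genes 1 was higher and 4 lower, beside 13.2% and 31.1% of all genes. Of the 19 genes 12 were at 0 UMIs in RA-labelled cells, Cd52, Cd79a and Coro1a among them. Lyz2 was the most abundant, with 8 UMIs in 2 cells, and 87.5% of them came from 1 cell. The part of white blood cells and platelets in the haemoglobin result was not tested.

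Genes of non-muscle heart cells were mostly lower in the RA-labelled pool. Of 12 measured endothelial genes 9 were at least 1.5-fold lower and 0 higher (median -1.27), beside the 31.1% of all genes that were lower. Pecam1, an endothelial adhesion molecule, was at 20.1 against 92.1 CPM, and Flt1, a VEGF receptor, at 17.9 against 80.9. With each cell given equal weight the endothelial median was 0.0022, so the sign depends on the weighting. That weighting gives full weight to 1 shallow library D cell with 1.08% endothelial UMIs. The mean endothelial share per cell, that cell included, was 0.044% in RA-labelled and 0.057% in ventricular cells. The library D sum went apart, with 1919 CPM of endothelial genes in RA-labelled cells against 284 and 263 CPM in its LV and RV cells. That sum rests on 50 UMIs. In the highest of its 8 RA-labelled cells endothelial genes made up 1.08% of non-haemoglobin UMIs, against a median of 0.0073% over the 8. Of 9 fibroblast genes 8 were lower and 0 higher (-1.14). Mesothelial genes, markers of the heart's outer lining, went the other way: 3 of 4 measured were higher (1.10), beside 13.2% of all genes, with Msln (mesothelin) at 60.4 against 23.7 CPM. Their median was -0.19 in cells with at most 2% haemoglobin and 0.20 without library C. Muc16, another of them, was at 53.7 against 7.47 CPM, with 50.0% of its UMIs from 1 cell, and turned to -0.55 in cells with at most 2% haemoglobin. All mesothelial genes together had 91 UMIs in RA-labelled cells, 83 of them in library C and 0 in D, and the median cell had none.

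**Figure D5:**
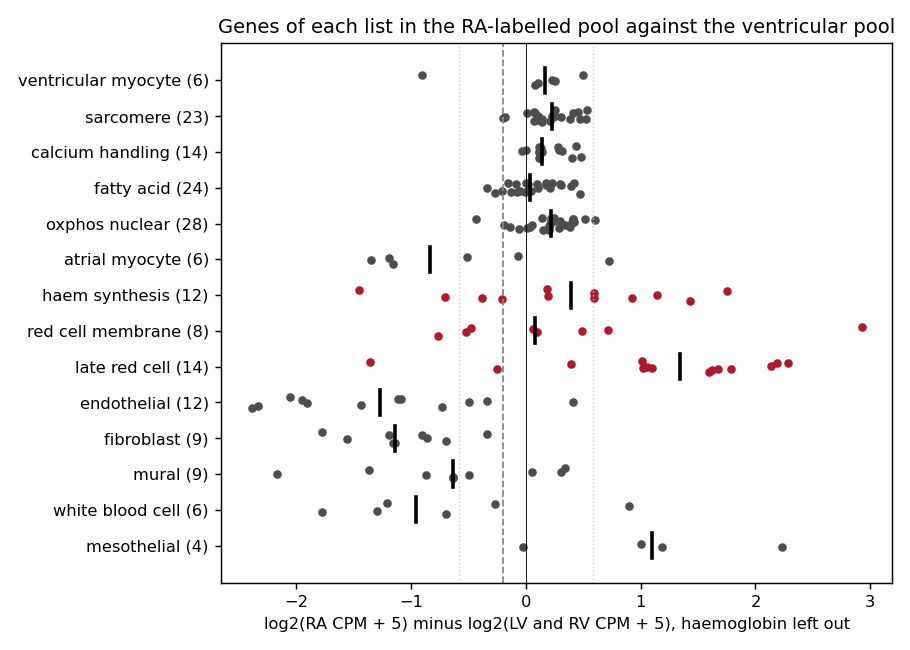
Each measured gene of 14 lists, as the log2 difference between the RA-labelled and the ventricular pool (CPM + 5, haemoglobin left out), with list medians as bars, the median of all genes (-0.19) dashed and 1.5-fold limits dotted. Muscle lists cluster around 0, the late red cell list lies right (median 1.34) and endothelial and fibroblast genes lie left.

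The genes named by size were partly those of single cells. Among the 10 largest increases, Asns (asparagine synthetase) had 28 UMIs of which 85.7% came from 1 cell, and stood at -0.14 without library C. Pard6a had 64.9% of its 37 UMIs in 1 cell and was at -1.25 without library C. Slc4a1, Wif1, Muc16, Cramp1l, Casp6 and Arsb completed the list with Tent5c and Isg20, and of the 10 those last 2 were higher in all 4 libraries. The 10 largest decreases were Dnaja1, Ly6c1, Kitl, Pdgfd, Ptprb, Trip12, Dhx32, Adamts1, Pecam1 and Flt1. Dnaja1, a heat shock co-chaperone, was at 6.72 against 53.6 CPM and lower in 4 of 4 libraries.

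Against the LA-labelled cells, 956 of 5711 genes (16.7%) were higher by 1.5-fold or more in the RA-labelled pool and 1591 (27.9%) lower, with a median over all genes of -0.071. All 7 mesothelial genes were lower (median -2.75), with medians of 0 in libraries A and D, -4.18 in B and -4.25 in C. LA-labelled cells held 1061 mesothelial UMIs in B and 611 in C, but 1 in A and 1 in D. Of 12 late red cell genes 6 were higher and 0 lower (0.71), with medians of 1.64 without library C and 0.13 without library D. Of 23 sarcomere genes 8 were higher and 0 lower (0.38), with medians of 0.023 in library A, 0.16 in B, 1.23 in C and -0.40 in D, and 0.053 without C. Myl7, with no UMI in RA-labelled cells, was among the 10 largest decreases. It had 81 UMIs in 11 of 56 LA-labelled cells, and 77.8% of them came from 1 cell. Of the 10 largest increases, Pard6a and Rlf turned to -0.32 and -0.18 without library C.

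Summed RA-labelled cells under 5000 gene UMIs resembled the ventricular cells of their own library most in 4 of 4 libraries, a measure chosen after the data were seen. Pearson's r of log2(CPM + 5) over 3642 genes was 0.650 with the own library in A (next 0.604), 0.581 in B (0.559), 0.604 in C (0.581) and 0.597 in D (0.578). The deeper cells did so in 3 of 4 libraries, and in B the values were 0.655 and 0.656. The points are genes, which are not replicates, and cells of a library share its preparation and sequencing. Whether RNA or reads passed between wells of a library was not tested.

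The wells on either side of the filter also differed widely in haemoglobin. The kept cells nearest to it had 507, 524 and 580 genes with 12.0%, 34.6% and 1.73% haemoglobin, and the nearest left out had 473, 472 and 445 genes with 19.5%, 0.333% and 44.4%. Of the 25 RA-labelled wells left out, 13 had under 1000 gene UMIs and 12 only under 500 genes, and 13 held over 20% haemoglobin. Their haemoglobin share ran from 0.333% to 62.9% with a median of 24.0%.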

How the data were processed

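The deposited tables hold whole-number UMI counts and read counts per gene and well, made by the authors from SCRB-seq libraries. STAR 2.5.4b, featureCounts and the GRCm38 build are named in the submitters' processing notes. Annotation, strand setting and UMI rule: not given in the sources used here. Reads of a gene and of one overlapping it, antisense included, may therefore be mixed. Percent columns deposited by the authors in the cell table were not used. Of the count columns 21 carry no chamber label and were left out, and 24489 of 24522 gene identifiers matched a symbol.

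Wells with under 1000 gene UMIs or 500 genes were dropped, and no doublet caller was run. CPM is UMIs per 1000000 nuclear-encoded UMIs without haemoglobin genes. Pools are summed UMIs, and log2 differences use CPM plus 5 for genes with at least 30 UMIs. With 1 sample there is no test, and a call is a 1.5-fold difference. The genes named are the 10 largest in each direction at 50 CPM or more in either pool, predicted genes left out, plus list members. The members, the 25 lists and the motifs were chosen with earlier results of these data known. The interval code was tested on simulated data. Scaling factors (TMM) for 1 alternative came from edgeR 4.0.16 in R 4.3.3, and all else was computed in Python 3.11.15 with scipy 1.17.1 and pandas 2.3.3.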

Additional observations from a re-analysis of the deposited data

How the results depend on the processing

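The median haemoglobin share of RA-labelled cells was 3.08% in cells with at least 5000 gene UMIs, and 6.11% to 19.3% with 1 library left out. Median gene UMIs without haemoglobin were 1999 with no filter, 2266 for nuclear-encoded genes alone and 3000 to 4264 with 1 library left out. Against the ventricles, genes higher in RA numbered 827 with a pseudocount of 20 CPM, 774 with at least 100 UMIs per gene, 2200 with cells weighted equally, 552 without each gene's top cell and 1378 to 1748 with 1 library left out. Genes lower numbered 1269, 1562, 4098 and 5259 under the same settings, 5741 with read counts and 3255 to 3437 with 1 library left out. Against LA, genes higher numbered 2726 with no minimum, 286 with at least 100 UMIs, 1441 with read counts and 808 to 961 with 1 library left out, and genes lower 5109, 307, 2349 and 870 to 1614. Among the results named in the text, signs turned with cells weighted equally for the endothelial (0.0022), ventricular (-0.23), sarcomere (-0.16), fatty acid (-0.063) and respiratory chain (-0.13) medians. Without library C the atrial (0.16) and ventricular (-0.20) medians turned, and without D the red cell membrane one (-0.13). The fatty acid median turned with haemoglobin kept in the total (-0.019). In cells with at most 2% haemoglobin Muc16 (-0.55) and the mesothelial (-0.19), red cell membrane (-0.33) and haem synthesis (-0.14) medians turned. The endocardial median, not given above, was -0.74 over 5 genes against the ventricles. It turned to 1.13 with cells weighted equally and to 1.16 without library A. Library D held 36 of that list's 62 UMIs in RA-labelled cells. Signs also turned without library C for Asns (-0.14), Pard6a (-1.25 against the ventricles, -0.32 against LA) and Rlf (-0.18), and for Pard6a against LA with equal weights (-0.85). With 1 library left out at a time the ranges were -0.14 to 3.45 for Asns, -1.25 to 2.89 for Pard6a and -1.02 to 0.16 for the atrial median against the ventricles, -1.25 to 1.16 for the endocardial median, and -0.32 to 3.10 for Pard6a and -0.18 to 3.32 for Rlf against LA. The cause was not tested. Keeping mitochondrially encoded UMIs in the total moved the median of all genes from -0.19 to -0.083 and the share of lower among called genes from 70.3% to 61.2%. Without the 2 deepest RA-labelled cells, a setting chosen after the data were seen, 1680 genes were higher and 3478 lower, and the late red cell median was 2.14. No paired analysis was possible because the labels form 1 sample and no test was made, and differences within libraries are given as values. Depth limits the shallow cells, whose single-gene intervals are wide.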
